A study of Homo sapiens with 14 samples.

Results

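This report describes 8 rRNA-like entries among the 2588 mature miRNAs counted in 2 assays that enrich RNA carrying internal N7-methylguanosine (m7G). The cells were A549, a line grown from a human lung carcinoma. The entries are hsa-miR-663a, hsa-miR-663b, hsa-miR-3648, hsa-miR-3687, hsa-miR-3656, hsa-miR-6087, hsa-miR-7641 and hsa-miR-7704, listed because they lie in, or resemble, ribosomal RNA. The list was drawn up with the enrichments of both assays already known, so every enrichment of these 8 entries is given as a description and not as a test. BoRed-seq is a chemical assay, in which NaBH4 reduction lets acid strip the base from m7G residues of cap-free RNA, and the bare sugar left behind is tagged with biotin for capture. It comprised 2 libraries of reduced RNA (Red) and 2 control libraries (Ctrl) in which the NaBH4 had been quenched. In m7G-RIP-seq, decapped RNA was immunoprecipitated with an anti-m7G antibody, and 5 immunoprecipitates (IP) were compared with 5 libraries of the starting RNA (Input). All 14 libraries came from this 1 line, and nothing in the labels says whether replicates came from separate cultures, so the errors measure the spread between these libraries, which may be technical.

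Ribosomal RNA is transcribed by RNA polymerase I as a 45S precursor that holds, from its 5′ end, an external transcribed spacer (5′ ETS), 18S, 5.8S and 28S rRNA parted by internal spacers, and a 3′ ETS. The spacers are cut away during ribosome assembly. m7G is a known internal mark of 18S rRNA and of many tRNAs. A short read carries no trace of the transcript that it was cut from, so a read that fits both a miRNA hairpin and the 45S precursor cannot be told apart by its sequence.

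A mature sequence was at hand for 4 of the 8 entries (RefSeq, GRCh38.p14) and all 4 matched the 45S precursor in the sense strand along their whole length with at most 1 mismatch. They are shown with the seed, bases 2 to 8, in capitals, each followed by the stretch of RNA45SN2 that it matches, in which capitals mark the identical bases. RNA45SN2 is the copy of the precursor gene at chr21:8205988-8219302, and all 4 stretches are on its plus strand.
hsa-miR-663a: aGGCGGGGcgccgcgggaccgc
RNA45SN2, chr21:8208033-8208062: tcccAGGCGGGGCGCCGCGGGACCGCcctc
hsa-miR-663b: gGUGGCCCggccgugccugagg
RNA45SN2, chr21:8208097-8208126: tcctGGTGGCCCGGCCGTGCCTGAGGtttc
hsa-miR-3648: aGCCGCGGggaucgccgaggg
RNA45SN2, chr21:8208496-8208525: ggggAGCCGCGGGGATCGCCGAGGGccggt
hsa-miR-7704: cGGGGUCGgcggcgacgug
RNA45SN2, chr21:8215157-8215186: gcgcaCGGGGTCGGCGGCGACGTcggctac

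The matches of 3 entries were exact and lay in the 5′ ETS, at bases 2050 to 2071 of the precursor for miR-663a, 2114 to 2135 for miR-663b and 2513 to 2533 for miR-3648. The match of miR-7704, at bases 9175 to 9193, lay in 28S rRNA and differed at its last base, G19C, with the base of the mature miRNA first and positions counted from its 5′ end. The 4 seeds were all different. GC content ran from 81.0% to 90.9%, against a median of 52.2% over the 2281 entries with a sequence, of which 2.63% reached the lowest of the 4.

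The annotated hairpins lie in very different places. MIR3648-1 (chr21:8208473-8208652) lies inside the 5′ ETS of RNA45SN2 itself, and a second hairpin, MIR3648-2, lies at chr21:8986999-8987178. MIR663A (chr20:26208186-26208278) is in an exon of the lncRNA MIR663AHG, and MIR663B (chr2:132256966-132257080) is in an intron of ANKRD30BL. MIR7704 (chr2:176188843-176188901) overlaps an exon of HOXD1, a homeobox gene, and an exon of HAGLR, the lncRNA on the opposite strand. An exact search of hg38 found 9 copies of mature miR-663a, 11 of miR-663b and 8 of miR-3648, and only the 1 at its own hairpin for miR-7704. The study kept reads that fitted up to 10 loci.

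To see which other entries share this feature, all 2281 sequences were compared with the 45S precursor, 5S rRNA and both mitochondrial rRNAs, and 13 of them (0.570%) matched. Apart from the 4 above, these were 9 further entries, picked by sequence alone with no measured value used. miR-4466 matched the 5′ ETS, miR-4488, miR-4497, miR-4492 and miR-4516 matched 28S rRNA, and miR-1268a and miR-1268b matched the 3′ ETS at the same start, base 13062. miR-4485-3p and miR-1973 matched MT-RNR2, the mitochondrial 16S rRNA, at bases 893 to 912 and 912 to 930, so that they share 1 base. No entry matched 18S rRNA, the rRNA known for its m7G. Sequences of the 3 further entries that the later comparisons turn on are printed with their seeds in capitals.
hsa-miR-4485-3p: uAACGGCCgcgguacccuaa
hsa-miR-1268b: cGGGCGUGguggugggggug
hsa-miR-4466: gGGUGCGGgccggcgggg

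**Figure D1:**
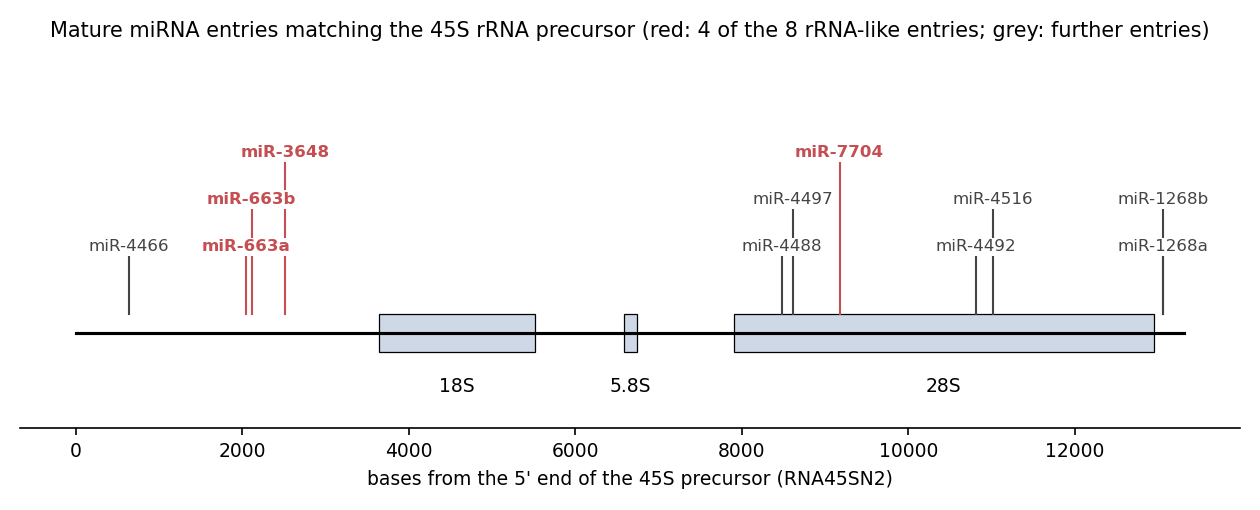
Positions of the 11 entries that match the 45S rRNA precursor, in bases from its 5′ end, with boxes for 18S (bases 3644 to 5512), 5.8S and 28S rRNA (7901 to 12954). The 4 rRNA-like entries are in red and the further entries in grey; 3 of the red entries lie within the 5′ ETS, 1 lies in 28S rRNA, and none of the 11 lies in 18S rRNA.

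Library totals were 242085 and 277498 counts in Red, 4678102 and 5874405 in Ctrl, 2854811 to 6452759 in IP and 7097379 to 14874685 in Input. In the smallest library a count of 0 allows a share of up to 0.00124%, and this limit covers counting error only. A second principal component, with 15.3% of the variance of the m7G-RIP-seq libraries, parted replicates 1 to 3 from replicates 4 and 5 in Input and IP alike. The labels name no batch, so m7G-RIP-seq enrichments are given below over all replicates and, where the entry could be tested there, within these 2 sets.

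Together the 8 entries held a very small part of the control libraries and a visible part of Red. Their summed counts made up 0.00827% and 0.00979% of the Ctrl libraries and 3.31% and 3.69% of the Red libraries. The mean share was 0.00903% ± 0.00107 in Ctrl and 3.50% ± 0.27 in Red (SD, n = 2 each), a 388-fold difference. In m7G-RIP-seq the share was 0.0130%, 0.0140%, 0.0143%, 0.0335% and 0.0317% in Input replicates 1 to 5, and 0.0357%, 0.0454%, 0.0381%, 0.0464% and 0.0459% in IP replicates 1 to 5. Every IP library was above every Input library, although Input replicates 4 and 5 came close, and the mean share in IP was 1.99-fold that in Input. This order depended on miR-21-5p, the most abundant miRNA of Input, which took 38.0% to 46.3% of Input and 4.64% to 6.27% of IP. Without miR-21-5p in the total, the share was 0.0218% to 0.0540% in Input and 0.0374% to 0.0495% in IP, and the groups overlapped, with IP above Input in 3 of 5 numbered pairs, those of replicates 1 to 3. The same step left Red 107-fold above Ctrl.

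**Figure D2:**
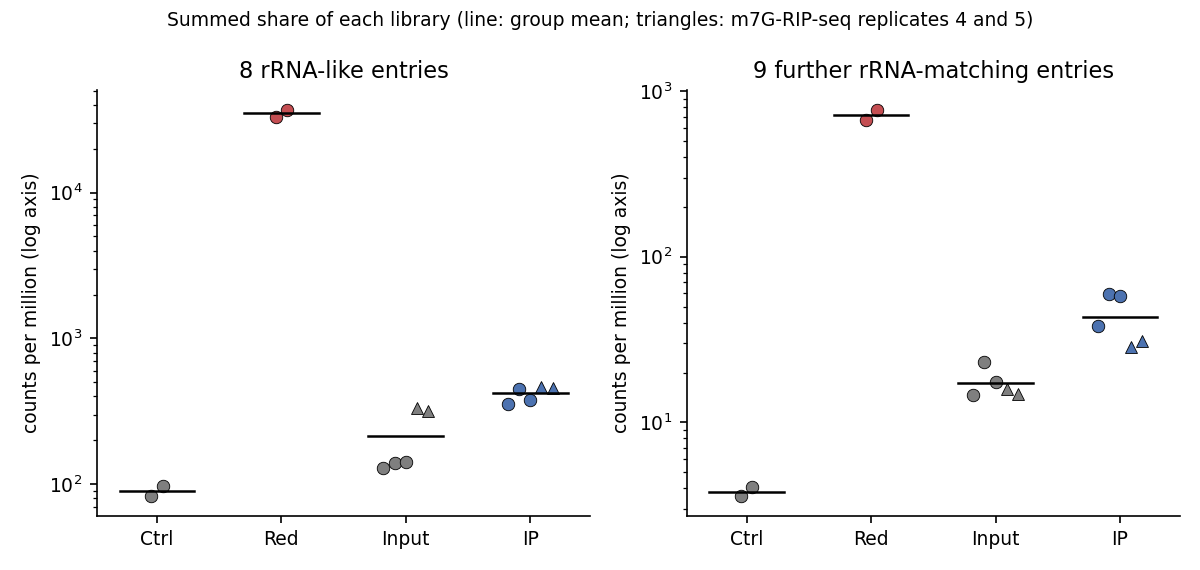
Summed CPM (counts scaled to a library total of 1000000), on a log axis, of the 8 rRNA-like entries (left) and of the 9 further rRNA-matching entries (right), with 1 symbol per library, triangles for m7G-RIP-seq replicates 4 and 5, and a line at each group mean. Red stands far above Ctrl in both panels; the Input libraries that come closest to IP in the left panel are replicates 4 and 5.

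One entry, miR-6087, dominated the counts of the set in Red. It made up 46.5% and 56.6% of the set's counts in the Ctrl libraries, and 80.0% and 82.7% in the Red libraries. In Input the leading entry was miR-3687 instead, with a median of 51.6% of the set's counts, and in IP the median was 48.9% for miR-6087 and 27.2% for miR-3687. In the deposited counts the leading entry thus differed between Ctrl and Input, the reference libraries of the assays. All counts of miR-3687 were even, and this order depends on whether its reads were counted 2 times, which was not tested. In Input replicates 1 to 5 miR-3687 had 442, 910, 922, 2650 and 3100 counts. miR-6087 had 265, 645, 546, 580 and 919. Divided by 2, the counts of miR-3687 would lie below those of miR-6087 in Input replicates 1 to 3 and above them in replicates 4 and 5. No fold change is given between the assays, because their tables were made apart.

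BoRed-seq enriched 7 of the 8 entries by large factors. Each of these 7 passed the filter of at least 10 counts in 2 libraries and was called enriched by DESeq2 at an adjusted p under 0.05, whereas 32.2% of all entries tested were called enriched. Of the 7, 5 had at least 10 counts in both Ctrl libraries, while miR-663a and miR-7641 had them in 1 and passed through Red. Because the entries were listed with this contrast known, nothing is read from the count. Their log2 enrichments ran from 5.39 to 8.78 with a median of 6.20, and the median of all 453 entries was -0.32.

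Within the set, miR-7641 had the largest fitted value. Its normalized counts, deposited counts divided by median-of-ratios size factors, were 1.11 and 3.72 in Ctrl and 926 and 1077 in Red. The deposited counts behind them were 4 and 10 in Ctrl and 250 and 440 in Red, so that even before scaling the much shallower Red libraries held more reads. Its log2 enrichment was 8.78 ± 0.51 (SE). miR-6087 stood next in size and was by far the most abundant of the set, with 76.1 and 79.2 normalized counts in Ctrl and 24550 and 20047 in Red. The log2 enrichment of miR-6087 was 8.17 ± 0.28, and its Ctrl mean was 77.7 ± 2.2 (SD, n = 2). The 95% intervals of these 2 enrichments overlapped, from 7.78 to 9.79 for miR-7641 and from 7.62 to 8.71 for miR-6087.

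The 3 entries that match the 5′ ETS lay close together after reduction. miR-663a, which has been studied as a regulator of the transcription factor JUNB, had 3.87 and 3.35 normalized counts in Ctrl and 567 and 521 in Red. miR-663b had 4.43 and 6.32 in Ctrl and 393 and 387 in Red, and miR-3648 had 5.53 and 9.67 in Ctrl and 518 and 489 in Red. The Red replicates of each entry lay close together, and no Ctrl library came near them. The log2 enrichments were 7.22 ± 0.45, 6.20 ± 0.44 and 6.07 ± 0.42, and the 95% interval ran from 6.34 to 8.11 for miR-663a, from 5.34 to 7.06 for miR-663b and from 5.26 to 6.89 for miR-3648, so that the 3 intervals overlap.

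miR-7704, the entry with a 28S match, behaved much like the 5′ ETS entries. It had 6.92 and 13.0 normalized counts in Ctrl and 744 and 685 in Red, a log2 enrichment of 6.19 ± 0.40. miR-3687 was the second most abundant of the set in Ctrl, with 36.5 and 55.0, and reached 1970 and 1855 in Red. Its log2 enrichment of 5.39 ± 0.32 was the smallest of the 7. miR-3656 was not tested, with deposited counts of 0 and 0 in Ctrl and 2 and 1 in Red. These are too few counts for the filter, and no fold is given.

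These values were smaller when Ctrl replicate 1 was left out. The median log2 enrichment of the set then fell to 5.17, with miR-3687 at 4.34, miR-7641 at 7.29 and miR-6087 now above it at 7.36. The fall was not limited to entries with lower counts in that library. It included miR-663a, at 3.87 in Ctrl replicate 1 and 3.35 in Ctrl replicate 2, which went from 7.22 to 6.57. Leaving a library out also changes the size factors and the filter, and their part was not tested. Total-count factors shifted the median of all entries by 1.08 and took that of the 7 entries to 7.32, and enrichments then made up 79.2% of all calls where they had made up 54.2%.

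**Figure D3:**
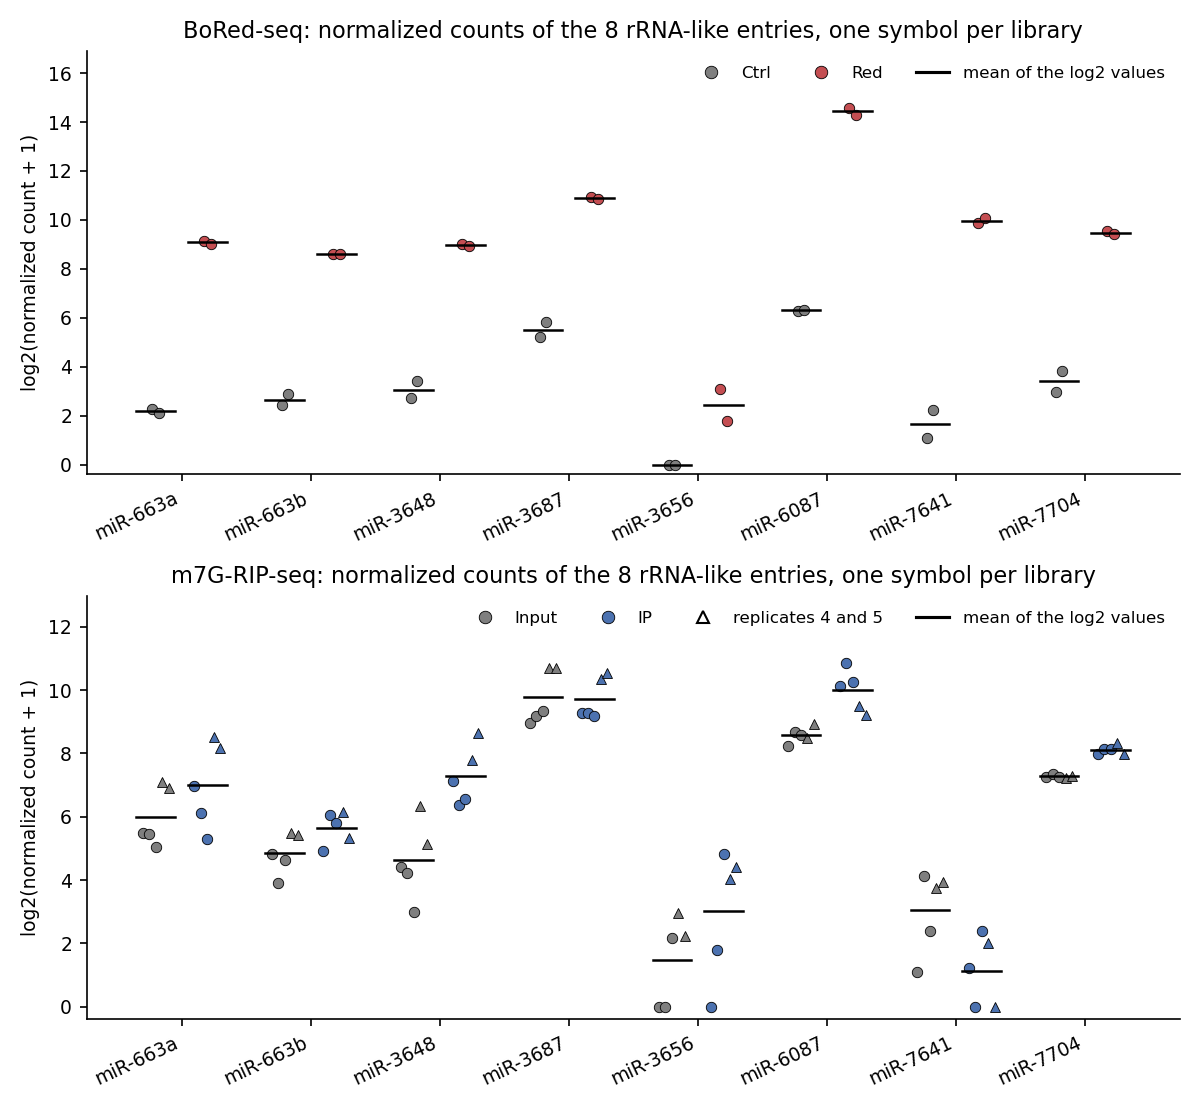
Log2 of the normalized count plus 1 for each of the 8 entries, with 1 symbol per library and a bar at the mean of the log2 values, in BoRed-seq (top; grey Ctrl, red Red) and m7G-RIP-seq (bottom; grey Input, blue IP, triangles for replicates 4 and 5). In BoRed-seq the Red libraries lie above Ctrl for each entry, although miR-3656, with counts of 0 and 0 in Ctrl and 2 and 1 in Red, cannot be judged. In m7G-RIP-seq the groups are apart only for miR-3648, miR-6087 and miR-7704. No share of all entries whose groups are apart is given beside these. The entries were listed with both contrasts known, so nothing is read from either pattern.

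The m7G antibody gave smaller and less even values. Of the 8 entries, 6 passed the filter of at least 10 counts in 5 libraries, all 6 with at least 10 counts in every library, and 3 were called enriched, miR-3648, miR-6087 and miR-7704. Over all entries tested, 27.3% were called enriched, and again nothing is read from the count. The log2 enrichments of the 6 ran from -0.12 to 2.55 with a median of 1.04, and the median of all 670 entries was 0.02.

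miR-3648, which has been studied as a regulator of APC2, a negative regulator of Wnt signalling, had the largest value. Its normalized counts were 20.3, 17.8, 7.0, 79.6 and 34.1 in Input replicates 1 to 5, and 140, 81.2, 92.7, 223 and 396 in IP replicates 1 to 5. The groups did not overlap, but the highest Input value, 79.6 in replicate 4, came close to the lowest IP value, 81.2 in replicate 2. The log2 enrichment was 2.55 ± 0.62 (SE), 2.78 ± 0.61 in replicates 1 to 3 alone, 2.36 ± 0.42 in replicates 4 and 5 alone, and 3.23 without Input replicate 4.

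For miR-6087 the normalized counts were 300, 410, 382, 360 and 490 in Input and 1120, 1840, 1220, 728 and 596 in IP, replicates 1 to 5 in order. All IP libraries were above all Input libraries, with replicates 4 and 5 the lowest of IP. Its log2 enrichment was 1.5 ± 0.31 over all replicates, 1.92 ± 0.23 in replicates 1 to 3 and 0.56 ± 0.23 in replicates 4 and 5, and it was called enriched in each of these fits. The size of the miR-6087 enrichment thus depended on the replicate set more than that of miR-3648 or miR-7704.

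The entry that varied least was miR-7704. It had 153, 161, 153, 150 and 156 normalized counts in Input and 255, 281, 278, 319 and 254 in IP, replicates 1 to 5 in order. Its Input libraries spread by a coefficient of variation of 2.81%, against a median of 32.6% over the 670 entries, and only 0.149% of them varied less. The log2 enrichment of 0.84 ± 0.15 was small but hardly moved with the replicate set, at 0.78 ± 0.28 in replicates 1 to 3 and 0.83 ± 0.29 in replicates 4 and 5, and it was called in both.

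miR-663a and miR-663b, the neighbours in the 5′ ETS, were not called in the fit with no covariate, which ignores the replicate numbers. miR-663a had 44.1, 42.6, 32.2, 135 and 119 normalized counts in Input and 124, 68.9, 37.9, 366 and 287 in IP, replicates 1 to 5 in order. The groups overlapped because replicates 4 and 5 were higher in both, while within each numbered pair IP was above Input. Its log2 enrichment was 1.24 ± 0.62. With the replicate number as a block, since Input was set aside from the RNA that was immunoprecipitated, the value was 1.07 and miR-663a was called enriched. miR-663b had 27.1, 14, 23.8, 44.1 and 42.1 in Input and 29.0, 65.2, 54.8, 69.9 and 39.3 in IP, with a log2 enrichment of 0.77 ± 0.42. In replicates 1 to 3 and in replicates 4 and 5 the log2 enrichment of miR-663a was 0.94 ± 0.60 and 1.28 ± 0.29, called in the latter, and that of miR-663b was 1.19 ± 0.70 and 0.27 ± 0.58, called in neither. The call was sensitive to single libraries: miR-663a was also called without Input replicate 4 or 5 or without IP replicate 2 or 3, at a log2 enrichment of 1.45 to 1.57, and miR-663b without IP replicate 1, at 0.95. Both were called with total-count factors as well, which shifted the median of all entries by 0.36 and the share of enrichments among all calls from 47.8% to 58.6%.

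miR-3687, which was enriched in BoRed-seq, was not called in m7G-RIP-seq. Its normalized counts were 500, 578, 646, 1647 and 1652 in Input and 623, 618, 577, 1309 and 1492 in IP, replicates 1 to 5 in order. Replicates 4 and 5 were high in both groups, and the groups overlapped. The log2 enrichment was -0.12 ± 0.44, with a 95% interval from -0.98 to 0.74, and it was 0.05 ± 0.20 in replicates 1 to 3 and -0.32 ± 0.15 in replicates 4 and 5. Its sign was not stable, being positive with total-count factors (0.16), without Input replicate 4 or 5 (0.13 each) and without IP replicate 1 or 3 (0.02 and 0.01).

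The remaining pair, miR-3656 and miR-7641, had too few counts in m7G-RIP-seq for the filter. miR-7641, which had the largest BoRed-seq value of the set and the fifth of all 453 entries, had deposited counts of 1, 26, 6, 20 and 27 in Input and 1, 0, 2, 3 and 0 in IP. Its counts were low in all IP libraries, and Input replicate 1 was as low as they were. With no count filter its log2 value was -2.64 ± 1.12 and it was called depleted. In replicates 4 and 5 alone, a fit that miR-7641 entered through its Input counts, the value was -3.15 ± 1.64 and it was not called. miR-3656 had 0, 0, 5, 11 and 7 counts in Input and 0, 2, 13, 15 and 16 in IP. Without the filter its log2 value was 2.14 ± 1.19, and in replicates 4 and 5 alone it was 1.67 ± 1.15, called in neither. The assays thus gave values of opposite sign for miR-7641. The difference between the assays was not tested, since each is relative to the typical miRNA of its own libraries.

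**Figure D4:**
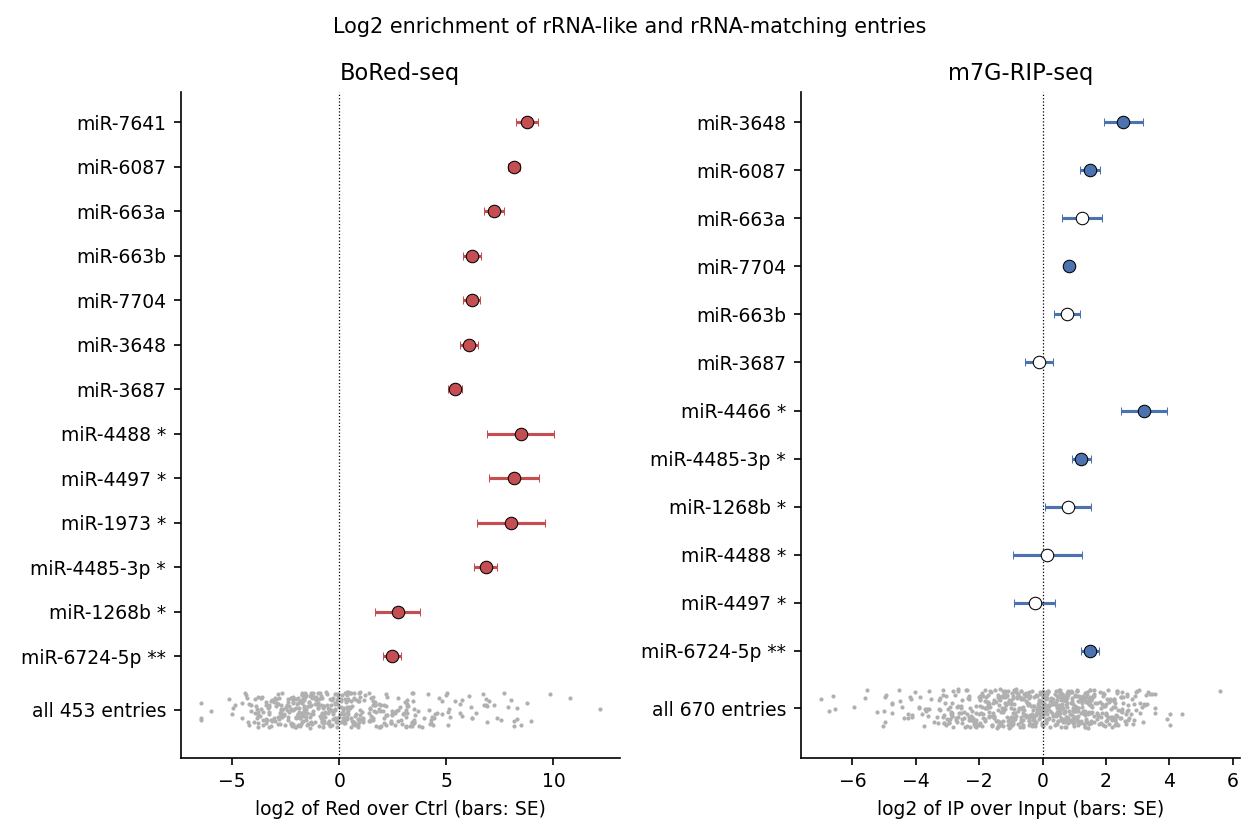
Log2 enrichment with its SE in BoRed-seq (Red over Ctrl, left) and m7G-RIP-seq (IP over Input, right) for the rRNA-like entries that passed the filter, the further rRNA-matching entries (one asterisk) and miR-6724-5p (a pair of asterisks), with filled symbols for called entries and grey dots for all entries tested. The rRNA-like entries lie between 5.39 and 8.78 on the left (7 entries) and between -0.12 and 2.55 on the right (6 entries).

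Replicates 4 and 5 of m7G-RIP-seq held more of some entries of the set and not of others. In Input the mean normalized count of replicates 4 and 5 was 3.21 times that of replicates 1 to 3 for miR-663a, 3.78 times for miR-3648, 2.87 times for miR-3687 and 1.99 times for miR-663b, in each case with no overlap between the sets. For miR-7704 the ratio was 0.98 and for miR-6087 it was 1.17, both with overlap, and miR-3656 and miR-7641 had too few counts for such a ratio. In IP the corresponding ratios were 4.24 for miR-663a, 2.96 for miR-3648 and 2.31 for miR-3687, but 0.48 for miR-6087, which was lower in replicates 4 and 5. For miR-663b and miR-7704 the IP ratios were 1.10 and 1.06, both with overlap between the sets.

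The pair miR-3687 and miR-3648, both counted in even numbers only, stood in another ratio in Input than in the other libraries. The deposited count of miR-3687 was 6.60 and 5.69 times that of miR-3648 in Ctrl, and 3.8 and 3.79 times in Red. In Input the ratio was 24.6, 32.5, 92.2, 20.7 and 48.4, and in IP 4.45, 7.61, 6.23, 5.87 and 3.77, replicates 1 to 5 in order. All Input libraries were above all other libraries, and the Ctrl values lay within the range of IP. The ratio of miR-6087 to miR-7704 was 11 and 6.09 in Ctrl and 33.0 and 29.3 in Red, and ran from 1.96 to 3.15 in Input and from 2.28 to 6.56 in IP. The ratio of miR-663a to miR-663b ran from 1.35 to 3.07 in Input and from 0.69 to 7.29 in IP, and overlapped.

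Levels of the 4 entries above are also given per base of mature sequence, a scale that does not by itself make different entries comparable. In Ctrl, miR-7704 had 0.309 ± 0.120 CPM per base, miR-3648 0.213 ± 0.073, miR-663b 0.144 ± 0.029 and miR-663a 0.0979 ± 0.0148 (SD, n = 2 each). The ranges of neighbours overlapped except between miR-663b and miR-663a. In Input, miR-7704 was at 0.999 ± 0.063 CPM per base and above the other 3 in every library, and miR-663a at 0.432 ± 0.309, miR-3648 at 0.196 ± 0.191 and miR-663b at 0.173 ± 0.084 overlapped (SD, n = 5 each). In Red the order was miR-7704 at 48.4 ± 6.7, miR-663a at 31.8 ± 4.4, miR-3648 at 30.9 ± 4.8 and miR-663b at 22.9 ± 4.2, so that miR-663a stood second where in Ctrl it was last, and its range overlapped that of miR-3648. All counts of miR-3648 were multiples of 2 and it has 2 annotated hairpins, while the other 3 have 1 each and no such divisor. Whether its reads were counted at both hairpins was not tested, and its place in these orders depends on that.

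The entries whose levels were most like those of the set over the 10 m7G-RIP-seq libraries, by the median Pearson correlation of log2 levels less the group mean with the 6 filtered entries, were miR-4521 at 0.76, miR-654-5p at 0.74 and miR-365b-3p at 0.73, out of 308 candidates. These correlations rest on the split between the replicate sets. With levels taken less the mean of each replicate set the values were -0.07, -0.09 and -0.14, and the ratio of replicates 4 and 5 to replicates 1 to 3 in Input was 1.77, 2.10 and 3.54 for these 3 miRNAs. Within the sets the set's own entries did not move together either, with correlations from -0.66 to 0.59.

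The 9 further rRNA-matching entries, none of which was picked by its values, were higher in the pulldowns as a sum, though not each for itself. Their summed CPM was 3.57 and 4.06 in Ctrl and 669 and 771 in Red. In Input it was 14.7, 23.1, 17.6, 16 and 14.9 CPM, and in IP 38.2, 59.7, 57.8, 28.4 and 31.2, replicates 1 to 5 in order. All IP libraries were above all Input libraries, and without miR-21-5p in the total the groups overlapped, at 24.6 to 42.9 CPM in Input and 30.3 to 62.7 CPM in IP, while IP was above Input in 5 of 5 numbered pairs. Much of the sum came from miR-4485-3p, the mitochondrial match, with 1.36 and 1.71 CPM in Ctrl and 380 and 364 in Red. In m7G-RIP-seq miR-4485-3p had 4.65 to 10.2 CPM in Input and 11.8 to 31.2 in IP. There miR-1268b had 0.269 to 9.23 CPM in Input and 5.29 to 17.2 in IP.

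In BoRed-seq, 5 of the 9 passed the filter and all 5 were called enriched by DESeq2, beside 32.2% of all entries. However, 4 of the 5, miR-4485-3p, miR-4488, miR-4497 and miR-1973, passed through Red alone and had to differ, so the count is no support. miR-4485-3p, which matches mitochondrial 16S rRNA, had deposited counts of 8 and 8 in Ctrl and 92 and 101 in Red, from libraries with far fewer counts in all, and a log2 enrichment of 6.84 ± 0.54 (SE), given as a value only. miR-1268b, the entry with counts of at least 10 in a Ctrl library, had 11 and 8 in Ctrl and 4 and 10 in Red, with a log2 enrichment of 2.73 ± 1.04 (DESeq2 adjusted p = 0.0172). This call was lost with no count filter (DESeq2 adjusted p = 0.152), without Ctrl replicate 2 (0.294) and with the replicate block (0.0888). The other 4 had deposited counts of 0 to 1 in Ctrl and 0 to 12 in Red.

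In m7G-RIP-seq, 5 of the 9 were tested and 2 were called enriched, beside 27.3% of all entries, but miR-4466, 1 of the 2, was admitted by its IP counts and gives no support. miR-4485-3p had 37.3, 66.1, 51.1, 74.0 and 61.3 normalized counts in Input and 120, 162, 188, 77.0 and 138 in IP, replicates 1 to 5 in order. The groups did not overlap, with IP replicate 4 just above the highest Input, and the log2 enrichment was 1.23 ± 0.31 (DESeq2 adjusted p = 0.000225), higher in IP in 5 of 5 pairs. In replicates 4 and 5 alone its log2 enrichment was 0.58 ± 0.46 and it was not called. miR-4466, which matches the 5′ ETS, had deposited counts of 0, 13, 1, 6 and 4 in Input and 10, 25, 23, 27 and 18 in IP, and a log2 value of 3.20 ± 0.74, with 3.28 ± 1.29 in replicates 1 to 3 and 3.03 ± 1.10 in replicates 4 and 5. miR-4488 and miR-4497, with 28S matches, had log2 values of 0.15 ± 1.08 and -0.25 ± 0.65 (DESeq2 adjusted p = 0.915 and 0.760). In replicates 1 to 3 they were at 0.75 ± 1.29 and 0.39 ± 0.92, and in replicates 4 and 5 miR-4497 was at -2.04 ± 1.04 and miR-4488 was not tested, with no call in either set. miR-1268b had 0.79 ± 0.73 (DESeq2 adjusted p = 0.353), and with the replicate block 1.45 and an adjusted p of 0.0265. Its value rested on the replicate set, with 0.36 ± 0.48 in replicates 1 to 3, not called, and 3.13 ± 0.87 in replicates 4 and 5, called (DESeq2 adjusted p = 0.000844).

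Some features of the counts themselves bear on these values. miR-1268a, whose mature sequence has 38 exact copies in hg38, had a count of 0 in all 14 libraries, while miR-1268b, which shares its start and has 9 copies, was counted in all of them. So was miR-663b, which has 11 copies. The counts of miR-3648 and miR-3687 were even in all 14 libraries. Those of miR-6724-5p, whose 4 hairpins include MIR6724-1 (chr21:8205315-8205406), 581 bases before the start of RNA45SN2, were multiples of 4. Of the 704 entries with at least 100 counts, 25 (3.55%) had counts with such a common divisor, so that levels of these entries are counted in larger steps than those of the rest. miR-6724-5p was enriched in both assays, with log2 values of 2.47 ± 0.43 for Red over Ctrl and 1.5 ± 0.29 for IP over Input (DESeq2 adjusted p = 4.39e-08 and 8.47e-07), the former below that of each of the 7 rRNA-like entries tested. Without Ctrl replicate 1 the former was 1.27 (DESeq2 adjusted p = 0.0351), and the latter was 1.64 ± 0.25 in replicates 1 to 3 and 1.07 ± 0.31 in replicates 4 and 5, called in both. miR-8069, with hairpins on chromosome 21 outside the 45S genes, had at most 4 counts in a BoRed-seq library and at most 10 in an m7G-RIP-seq library, and was not tested. The tables hold no reads counted over rRNA, so the part that rRNA fragments take in any of these values was not tested.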

How the data were processed

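Each assay has 1 deposited table of raw read counts over mature miRNAs, which the authors made by trimming adaptors with Trimmomatic, mapping reads to GRCh38/hg38 and counting over miRBase mature miRNAs with featureCounts, without normalization or pooling. The paper names STAR as the aligner (end to end, at most 1 mismatch, at most 10 loci), while the submitters' processing notes name Bowtie2. Samples were grouped by their labels, and 0 columns matched no sample. The members and lists were chosen with earlier results of these data known. The rule that picked the further rRNA matches used sequence alone. Entries with at least 10 counts in at least 2 (BoRed-seq) or 5 (m7G-RIP-seq) libraries were fitted with DESeq2 1.42.0 (Wald test; R 4.3.3), each assay apart with no covariate and with Benjamini-Hochberg adjustment of p. Calls are at an adjusted p under 0.05, and log2 values are not shrunken. DESeq2 gave an adjusted p to 400 of 453 BoRed-seq entries and to all 670 m7G-RIP-seq entries. Median-of-ratios factors take the typical miRNA as unchanged. Entries named are the 8 members, all further rRNA matches (at most 1 mismatch), miR-6724-5p and miR-8069, and the 3 non-members with the highest median correlation with the members, among entries whose mean normalized count reached 100.

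Replicates of a group differed beyond sampling noise, with a chi-square per degree of freedom of 10.4 to 56.5 (BoRed-seq) and 25.8 to 1382 (m7G-RIP-seq), so each library counts as 1 replicate. The Input of m7G-RIP-seq was set aside from the RNA that was immunoprecipitated, so its numbers were taken as pairs. Deviations from the group means of same-numbered libraries correlated at 0.15 to 0.39 in all 5 pairs. The split between the replicate sets, common to Input and IP, is part of these deviations. Input replicate 2 correlated best with IP replicate 1, and Input replicate 4 with IP replicate 5, so the correlations alone do not show pairing. With 2 pairs in BoRed-seq (0.11) the numbers were not taken as pairs. Alternatives were other size factors, edgeR 4.0.16, other filters, a replicate block, thinned Ctrl libraries, counts divided by their common divisor, each library left out and the replicate sets apart. On simulated data with 200 entries changed by a log2 of 2, DESeq2 recovered 65% in the BoRed-seq design (453 entries) and 96% in the m7G-RIP-seq design (670 entries). The simulation gave all entries the same dispersion and held no split between replicate sets, so recovery in the real libraries may be lower. Depth limits small shares, since a count of 0 allows 3 counts.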

Additional observations from a re-analysis of the deposited data

How the results depend on the processing

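All 7 BoRed-seq calls of the rRNA-like entries that were tested held in every alternative in which the entry passed the filter, and no called value changed sign. The median log2 of these entries in BoRed-seq was 7.32 with total-count factors, 5.79 with no count filter, 7.11 with Ctrl thinned to the depth of Red, and 5.17 to 6.56 with 1 library left out. In m7G-RIP-seq 3 were called, and 5 with total-count factors, which added miR-663a and miR-663b. Over all 670 entries, 183 were called enriched in the main fit and 232 with total-count factors, and nothing is read from these counts. The further rRNA-matching entries called enriched in BoRed-seq fell from 5 to 0 when 10 counts were needed in each library, a filter that left none of them to test, and were 0 to 4 with 1 library left out, the lowest value without Red replicate 2, when again none could be tested, and 1 without Red replicate 1. In m7G-RIP-seq the same filter left 1 called in place of 2.

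Without miR-21-5p in the total, the share of the 8 entries was 0.0447% in Ctrl, 4.78% in Red and 0.0364% in Input. With counts divided by their common divisor it was 0.00762% in Ctrl and 0.0339% in IP. An exact match in place of 1 mismatch left 11 matching entries, and a shared word of 16 bases gave 14.

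With the replicate block, 7 of the set were called in BoRed-seq (median 6.22) and 4 in m7G-RIP-seq (median 0.95). Of the further entries 4 and 3 were called with the block, in BoRed-seq without miR-1268b (adjusted p = 0.0888, DESeq2). In BoRed-seq these libraries share only a number. No share of all entries called with the block is given, so nothing is read from these counts.

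Depth limits BoRed-seq most. With 2 libraries a group and Red totals of 242085 and 277498 counts, entries at a few counts, such as miR-3656, could not be judged. The causes of these differences were not tested.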

Other observations

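Other GC-rich entries gave mixed values. Apart from rRNA matches, 5 tested entries in each assay had a GC content of at least 81.0%, the lowest of the 4 rRNA-like entries with a sequence. Their log2 enrichments ran from 0.10 to 6.91 with a median of 3.19 in BoRed-seq, where 4 were called enriched by DESeq2, and from -2.32 to 2.03 with a median of -0.81 in m7G-RIP-seq, where 2 were called. Across the 355 tested entries with a sequence in BoRed-seq, GC content and log2 enrichment had a Spearman's rho of 0.35, and across 602 in m7G-RIP-seq of 0.34, as a description across entries that share libraries and are not independent replicates.

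The spread of the set within Input was uneven. The coefficient of variation over the 5 Input libraries was 89.4% for miR-3648, 65.0% for miR-663a, 58.9% for miR-3687, 42.2% for miR-663b, 18% for miR-6087 and 2.81% for miR-7704, against a median of 32.6% over all 670 entries.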
